A study of Mus musculus with 18 samples.

Results

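The SLAM family of cell surface receptors, the adaptor SAP and the kinase Fyn were followed through the development of invariant natural killer T (iNKT) cells in the mouse thymus. Members were the 7 genes Slamf1, Slamf6, Slamf7, Ly9, Cd84, Sh2d1a (which encodes SAP) and Fyn, each read by the probe sets that carry its symbol and no other, with the brightest probe set standing for a gene that had several. All 7 were among the 13034 genes tested. The cells came from C57BL/6 mice, either wild type (WT) or Cd4CreMst1fl/fl (Mst1KO), in which Cre recombinase driven by Cd4 acts from the immature double positive thymocyte onwards and removes floxed Mst1 (Stk4), a kinase of the Hippo pathway. Thymocytes were enriched with CD8 microbeads, and cells that bound the CD1d tetramer, carried the T cell receptor and lacked CD24 were sorted on CD44 and NK1.1 into S1, which lacks both, S2, which has gained CD44 alone, and S3, which carries both. Each of the 6 groups had 3 arrays, 18 in all. The age and sex of the mice, whether WT mice carried Cre, and whether animals were pooled are not given in the labels. No group received a treatment.

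iNKT cells are selected in the thymus by double positive thymocytes that present lipid on CD1d, and this contact also brings SLAM receptors on both cells together. Most SLAM receptors bind their own kind on the facing cell. Tyrosine motifs in their tails take up SAP, and SAP brings in Fyn, which signals through protein kinase C theta towards NF-kappaB. Mice that lack SAP or Fyn have few iNKT cells or almost none, and Slamf1 and Slamf6 can stand in for each other in this step.

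Values are log2 expression on a microarray, group levels are mean ± SD (n = 3) and differences are log2 difference ± SE from limma. A gene was called at a Benjamini-Hochberg adjusted p under 0.05 over all genes tested. The design text gives 3 mice per genotype but no label ties a replicate number to a mouse, and p-values therefore reflect only how far these samples lie apart, part of which may be technical. RNA was taken from bulk sorts, and fewer cells of a type cannot be told apart from less RNA per cell. Array medians lay between 4.81 and 4.93, and all 7 genes were above the median on 18 of 18 arrays.

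The T cell and iNKT genes Cd3d, Cd3e, Cd3g and Zbtb16 were above the array median on 18 of 18 arrays. Markers of other cells were mixed. Of the immature thymocyte genes Cd4, Cd8b1 and Ptcra were above the median on 18 arrays. Dntt was above it on 9, Cd24a on 5, Cd8a on 1 and Rag2 on 0. Of the B cell genes Cd79b was above it on 15, Cd79a on 1, and Ms4a1 and Pax5 on 0. Of the macrophage and dendritic cell genes Cst3, Cd68 and C1qa were above it on 18, C1qb on 17 and Csf1r on 16. Lyz2 was above it on 10 and Itgax on 3. Of the NK cell genes Fcer1g was above it on 18, Tyrobp on 14, Ncr1 on 4 and Eomes on 0. Of the platelet genes Itga2b and Gp9 were above it on 18 and Pf4 on 0. Klrb1c, which encodes NK1.1, had means of 3.08, 5.27 and 8.51 along the WT stages and of 2.90, 4.94 and 8.78 along those of Mst1KO. The targeted gene Stk4 read 7.70 to 8.20 on the 9 WT arrays and 7.40 to 7.74 on the 9 Mst1KO arrays, without overlap within a stage. It passed the test for the average over stages, at -0.34 ± 0.06 in Mst1KO against WT (limma adjusted p = 0.0297), and at no single stage.

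Slamf6 and Slamf7 moved in opposite directions along the stages and by far more than the other members. The 6 group means spanned 3.54 for Slamf6 and 5.04 for Slamf7 on the log2 scale, wider than in 99.5% and 99.9% of genes tested. Ly9 spanned 0.68, Sh2d1a 0.52, Cd84 0.51 and Slamf1 0.41, against a median of 0.41 over all genes. Fyn spanned 0.18, and 6.53% of genes varied less.

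**Figure D1:**
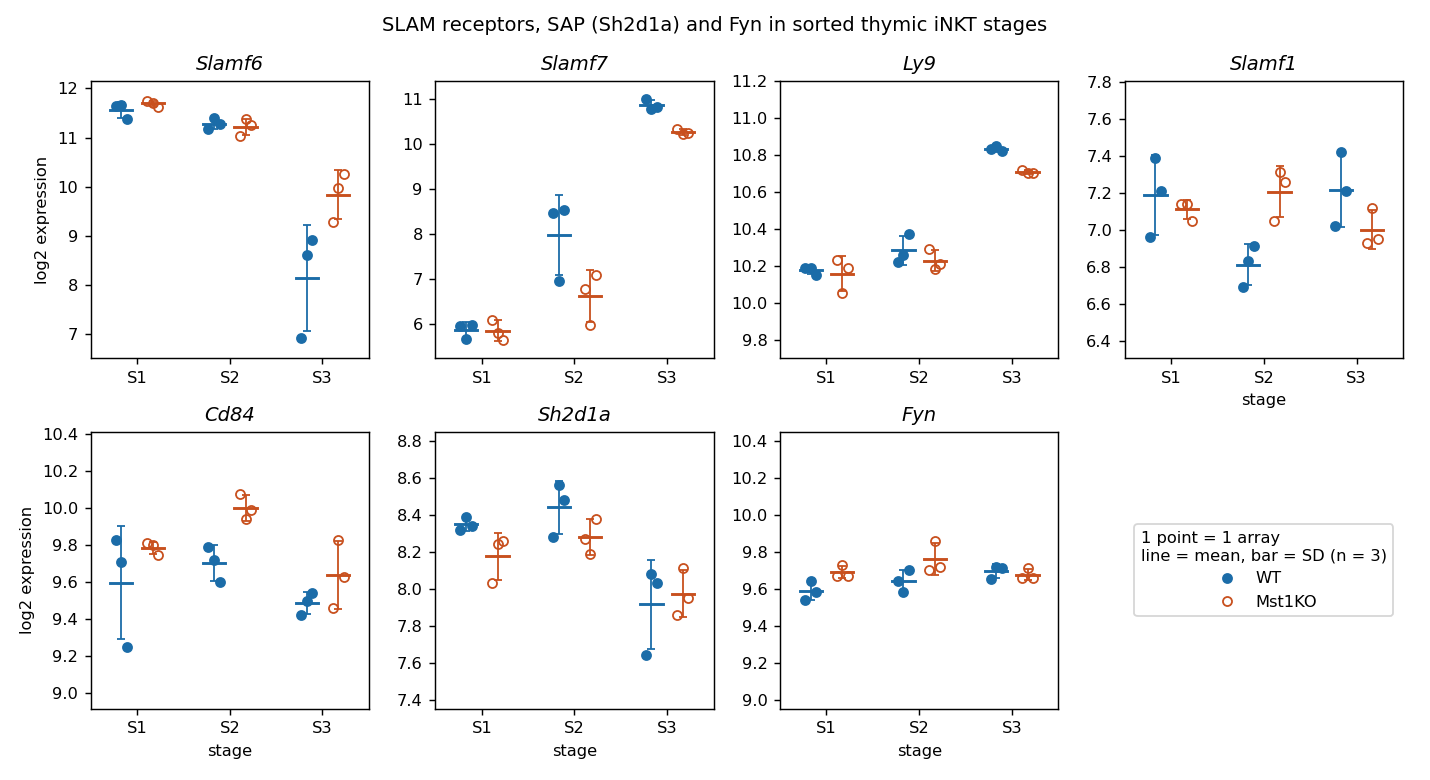
Log2 expression (vertical axis, with its own range in each panel) of the 7 genes at S1, S2 and S3 (horizontal axis). Each point is 1 array, lines are means and bars SD over 3 arrays; Slamf6 falls at S3 and Slamf7 climbs to S3 in WT (filled) and Mst1KO (open), while every Fyn array lies between 9.54 and 9.86.

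Slamf6 (Ly108) is a receptor that binds itself and signals through SAP. Its promoter and that of Slamf7 are shown because these 2 genes, which lie in the same receptor cluster of chromosome 1, changed most and in opposite directions. The windows are the 250 bases before the start of each gene in RefSeq's GRCm38.p6 table, read 5′ to 3′ on the gene's strand, chr1:171917212-171917461 (plus strand) for Slamf6 and chr1:171649000-171649249 (minus strand) for Slamf7. Capitals mark matches, on either strand, to AACNG, the core bound by MYB proteins, and to GTGTGA, the core of the T-box site bound by T-bet and EOMES.
Slamf6: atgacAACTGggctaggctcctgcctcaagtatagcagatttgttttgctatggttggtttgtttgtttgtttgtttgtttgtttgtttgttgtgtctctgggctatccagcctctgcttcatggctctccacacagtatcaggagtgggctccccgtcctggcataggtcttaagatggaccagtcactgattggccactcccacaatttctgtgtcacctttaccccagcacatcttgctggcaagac
Slamf7: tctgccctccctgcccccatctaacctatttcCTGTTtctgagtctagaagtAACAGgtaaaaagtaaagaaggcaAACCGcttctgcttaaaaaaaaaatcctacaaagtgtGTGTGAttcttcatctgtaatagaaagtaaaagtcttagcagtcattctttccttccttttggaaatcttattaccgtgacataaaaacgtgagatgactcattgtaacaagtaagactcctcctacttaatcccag

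The Slamf6 window held 1 AACNG match and 0 GTGTGA matches, and the Slamf7 window held 3 and 1. Of 32851 promoter windows of this length, 74.2% held AACNG and 12.3% held GTGTGA. The windows of Slamf1, Cd84 and Fyn, the other members matched in the table, held 1, 2 and 0 AACNG matches and 1, 0 and 1 GTGTGA matches. TGTGGT, the core of the RUNX site, was in 14.0% of all windows and, among the 5 members matched, once in Cd84. No motif contains another, and a match is a stretch of letters, not a measured site.

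Slamf6 RNA, on its brightest probe set, was high in the first stages. WT arrays read 11.64, 11.67 and 11.37 at S1 and 11.17, 11.39 and 11.28 at S2. Mst1KO arrays read 11.75, 11.70 and 11.63 at S1 and 11.04, 11.37 and 11.25 at S2. The genotypes overlapped at both stages. In Mst1KO all S2 arrays were below all S1 arrays, by -0.47 ± 0.36 that did not pass (limma adjusted p = 0.507). At S3 the WT arrays read 6.91, 8.61 and 8.92 and the Mst1KO arrays 9.28, 9.98 and 10.25. All 6 S3 arrays were below all 12 earlier ones, and every Mst1KO array at S3 was above every WT array.

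In WT, Slamf6 fell from S2 to S3 by 3.13 ± 0.36 (8.77-fold, limma adjusted p = 5.89e-06; -2.51 without replicate 1 of WT S3) after an S1 to S2 difference of -0.28 ± 0.36 that did not pass (limma adjusted p = 0.78). In Mst1KO it fell by 1.38 ± 0.36 (2.61-fold, limma adjusted p = 0.0127), a call that was lost without replicate 1 of Mst1KO S3 (-1.10, limma adjusted p = 0.074). At S3 the level was 8.15 ± 1.08 in WT and 9.84 ± 0.51 in Mst1KO, so Slamf6 was higher in Mst1KO by 1.69 ± 0.36 (3.23-fold, limma adjusted p = 0.0148). At S1 and S2 the genotype difference was 0.14 ± 0.36 and -0.06 ± 0.36 (limma adjusted p = 0.927 and 0.97). The difference between genotypes in the S2 to S3 change itself was 1.75 ± 0.50 and did not pass (limma adjusted p = 0.172), was 1.13 without replicate 1 of WT S3 (limma adjusted p = 0.141), and passed without replicate 3 of WT S3 (2.14, limma adjusted p = 0.0495).

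The call at S3 depended on single arrays. The SD of Slamf6 among WT S3 arrays was larger than that of 99.9% of genes, with replicate 1 the low array, and without it the difference was 1.07 (limma adjusted p = 0.0135). It was no longer called without replicate 2 (1.62, limma adjusted p = 0.0586) or replicate 3 of Mst1KO S3 (1.48, limma adjusted p = 0.0809), or in a fit on the S3 arrays alone (1.69, limma adjusted p = 0.168). A dimmer Slamf6 probe set, examined after the values were seen, read 5.32, 4.85 and 5.16 on the S3 arrays of WT and 5.91, 5.73 and 5.95 on those of Mst1KO. On the WT S3 arrays this probe set lay near the array medians of 4.87, 4.88 and 4.93, with replicate 2 below its median, so neither the order of these arrays nor the size of a difference against them was measured well. The genotype difference of 0.755 ± 0.238 did not pass (limma adjusted p = 0.1 over 13702 probe sets), and the probe set gives no separate check of the S3 call. From S1 to S2 this probe set differed by -0.583 ± 0.238 in WT and -0.803 ± 0.238 in Mst1KO (limma adjusted p = 0.225 and 0.0552). Its S2 to S3 fall was called in WT (-1.705, limma adjusted p = 5.35e-05) and not in Mst1KO (-0.655, limma adjusted p = 0.0713).

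**Figure D2:**
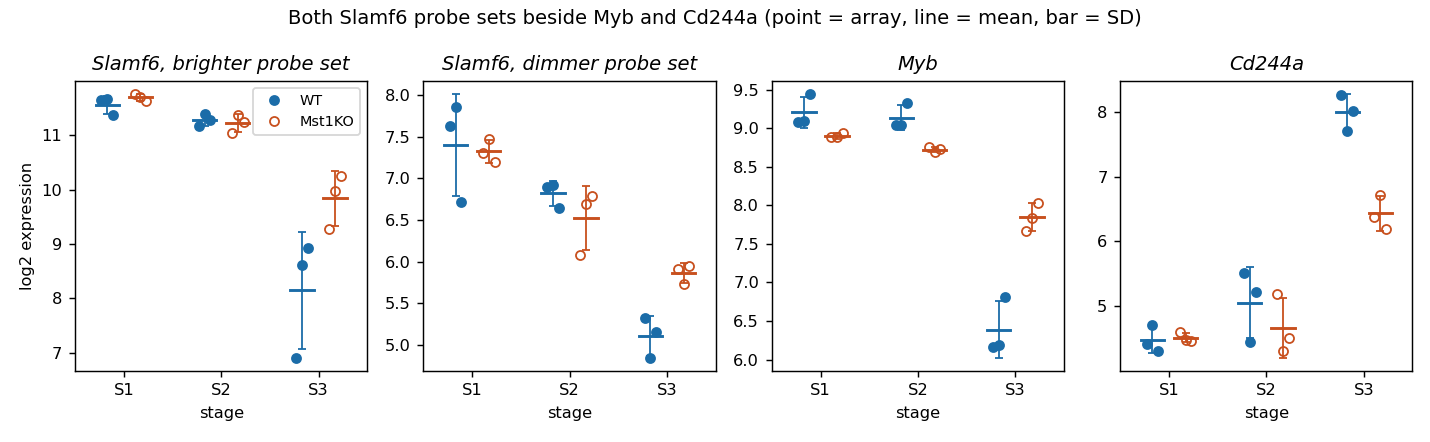
Log2 expression (vertical axis, own range in each panel) of both Slamf6 probe sets, Myb and Cd244a at S1, S2 and S3, with 1 point per array, the mean and the SD (n = 3). At S3 the Mst1KO arrays (open) lie above the WT arrays (filled) in both Slamf6 panels, where the dimmer WT values are near the array median, and for Myb, and below them for Cd244a.

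Other cell markers moved beside this difference. The summed level of 7 macrophage and dendritic cell markers was 10.50 to 10.52 in WT and 10.75 to 10.95 in Mst1KO at S3 on the log2 scale, with C1qb, a complement gene of macrophages, 1 of 7 called higher. That of 4 NK cell markers was 9.95 to 10.12 and 9.76 to 10.17. Tyrobp, 1 of 3 tested, was called higher, where 3.4% of all genes were called. The means of Fcer1g were 9.74 in WT and 9.4 in Mst1KO and those of Ncr1 5.45 and 4.54, neither called. The part of these cell markers in the Slamf6 difference was not tested.

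Slamf7 (CRACC) is a receptor of NK cells and activated lymphocytes that binds itself and can signal through the SAP-related adaptor EAT-2 without SAP. At S1 its WT arrays read 5.96, 5.66 and 5.98 and its Mst1KO arrays 6.10, 5.80 and 5.64, and the genotypes overlapped. At S2 they read 8.47, 6.96 and 8.53 in WT and 6.79, 5.98 and 7.09 in Mst1KO. Replicate 2 was the lowest of the S2 arrays in either genotype, and the highest Mst1KO array lay just above the lowest WT array. At S3 they read 11.01, 10.79 and 10.83 in WT and 10.34, 10.22 and 10.25 in Mst1KO, without overlap.

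Slamf7 rose at each step in WT, by 2.12 ± 0.32 from S1 to S2 (4.34-fold, limma adjusted p = 0.000986) and by 2.89 ± 0.32 from S2 to S3 (7.41-fold, limma adjusted p = 4.98e-06). In Mst1KO the S1 to S2 difference was 0.77 ± 0.32 (limma adjusted p = 0.185), and the S2 to S3 rise was 3.65 ± 0.32 (12.6-fold, limma adjusted p = 7.44e-07). Over the whole course it rose 32.1-fold in WT (5.01 ± 0.32, limma adjusted p = 4.54e-09) and 21.5-fold in Mst1KO (4.43 ± 0.32, limma adjusted p = 3.25e-08). Within S2, Mst1KO differed from WT by -1.37 ± 0.32 and narrowly missed the threshold (limma adjusted p = 0.0508). Without replicate 2 of WT S2 the difference was -1.88 (limma adjusted p = 0.00112), and without replicate 3 of Mst1KO S2 it was -1.60 (limma adjusted p = 0.0449). The 6 fits without an array gave -1.88 to -1.05, and 2 of them called it. It was also called with a 75th percentile filter (limma adjusted p = 0.0324) and with quantile normalization repeated (limma adjusted p = 0.0431). It was not called without a filter, with median centring, a variance trend, array weights or averaged probe sets, or on the S2 arrays alone. At S3 the difference was -0.60 ± 0.32 (limma adjusted p = 0.375), called only in a fit on the S3 arrays alone (limma adjusted p = 0.034). The genotype difference in the change was -1.34 ± 0.46 from S1 to S2 (limma adjusted p = 0.537) and 0.76 ± 0.46 from S2 to S3 (limma adjusted p = 0.57), so neither was called. Without replicate 2 of WT S2 the former was -1.86 (limma adjusted p = 0.0491). It was called in 1 of 12 fits without an array, which gave -1.86 to -1.02. The summed level of 4 NK cell markers, read beside Slamf7, was 7.04 to 7.51 on the WT arrays of S1 and S2 and 9.95 to 10.12 at S3, and all 3 of them that were tested rose from S2 to S3 in WT. On the Mst1KO arrays it was 7.38 to 7.62 at S1 and S2 and 9.76 to 10.17 at S3, and Fcer1g and Tyrobp, 2 of 3, rose in that step, while the Ncr1 means were 4.46 and 4.54. From S2 to S3 10.4% of all genes rose in WT and 8.01% in Mst1KO, and from S1 to S2 2.7% and 3.77%. Of the 7 macrophage and dendritic cell markers 4 rose from S2 to S3 in either genotype, and 1 rose in WT and 5 in Mst1KO from S1 to S2. Their summed level at S2 was 10.26 to 10.47 in WT and 10.53 to 10.64 in Mst1KO, without overlap. Itgax, 1 of 7, was called higher in Mst1KO at S2, where 1.17% of all genes were called. The part of these markers in the stage changes and the S2 difference was not tested.

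Replicate 2 of S2 was also the low array for Klrb1c and Cd244a, genes of NK cells chosen for this comparison after their values were seen. Klrb1c, which the S2 gate keeps low at the surface, read 5.40, 4.97 and 5.45 in WT and 5.44, 4.62 and 4.75 in Mst1KO. Cd244a read 5.51, 4.44 and 5.21 in WT and 5.19, 4.31 and 4.50 in Mst1KO. Cd44, the other gate marker, read 7.71, 7.44 and 7.33 in WT and 7.83, 7.71 and 7.68 in Mst1KO, where replicate 2 was not the lowest. Their part in the spread of Slamf7 was not tested.

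Ly9 (SLAMF3, CD229), a receptor that binds itself and recruits SAP, rose at S3 in either genotype with little spread. In WT its S1 arrays read 10.19, 10.19 and 10.15, its S2 arrays 10.22, 10.26 and 10.37, and its S3 arrays 10.83, 10.85 and 10.82. In Mst1KO they read 10.23, 10.05 and 10.19, then 10.29, 10.18 and 10.21, then 10.72, 10.70 and 10.70. All S3 arrays were above all earlier arrays. The S2 to S3 rise was 0.55 ± 0.08 in WT (1.46-fold, limma adjusted p = 4.48e-05) and 0.48 ± 0.08 in Mst1KO (1.4-fold, limma adjusted p = 0.000269). At S3 every Mst1KO array was below every WT array, by a mean of -0.13 ± 0.08 that did not pass (limma adjusted p = 0.442).

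Slamf1 (SLAM, CD150), the founding receptor of the family, differed by small steps and was lowest at S2 in WT. The S1 arrays of WT read 6.96, 7.39 and 7.21, the S2 arrays 6.69, 6.83 and 6.91, and the S3 arrays 7.02, 7.42 and 7.21. Mst1KO arrays read 7.14, 7.14 and 7.05, then 7.05, 7.31 and 7.26, then 6.93, 7.12 and 6.95. The WT S2 arrays lay below all arrays of the other 5 groups. The rise from S2 to S3 in WT was 0.40 ± 0.12 (limma adjusted p = 0.023), and the call was lost in 4 of 6 fits without an array: without replicate 1 (0.34, limma adjusted p = 0.0846) or 2 (0.41, limma adjusted p = 0.0504) of WT S2, and without replicate 2 (0.30, limma adjusted p = 0.114) or 3 (0.41, limma adjusted p = 0.0506) of WT S3. It was also lost in a fit on these groups alone (limma adjusted p = 0.0786). The S1 to S2 difference in WT was -0.38 ± 0.12 (limma adjusted p = 0.112), and Mst1KO exceeded WT at S2 by 0.39 ± 0.12 without overlap and without passing (limma adjusted p = 0.139). The genotype difference in the S2 to S3 change was -0.61 ± 0.17 (limma adjusted p = 0.162).

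Cd84 (SLAMF5), another receptor that binds itself and SAP, was not called in any of the 12 comparisons made. Its arrays lay between 9.25 and 10.08. Mst1KO S2, at 9.94 to 10.08, was the highest group and did not overlap with WT S2, at 9.60 to 9.79, but the difference of 0.30 ± 0.13 did not pass (limma adjusted p = 0.308). The S2 to S3 difference in Mst1KO was -0.36 ± 0.13 (limma adjusted p = 0.0614), which passed without replicate 2 of Mst1KO S3 (-0.46, limma adjusted p = 0.0372) and under 4 other settings (limma adjusted p between 0.0289 and 0.0382). The 6 fits without an array gave -0.46 to -0.27, and 1 of them called it.

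Sh2d1a, the gene for SAP, fell at S3 in WT. In WT the S1 arrays read 8.32, 8.39 and 8.34, the S2 arrays 8.28, 8.56 and 8.48, and the S3 arrays 7.64, 8.08 and 8.03, these last below all earlier ones. In Mst1KO they read 8.03, 8.24 and 8.26, then 8.27, 8.19 and 8.38, then 7.86, 8.11 and 7.95, and S1 and S3 overlapped. The S2 to S3 fall in WT was -0.52 ± 0.12 (1.43-fold, limma adjusted p = 0.00411; 0.0514 in a fit on these groups alone), and that from S1 to S3 was -0.43 ± 0.12 (limma adjusted p = 0.00955; -0.29 and 0.0613 without replicate 1 of WT S3). In Mst1KO the S2 to S3 difference was -0.31 ± 0.12 (limma adjusted p = 0.0884). The genotype difference in that change was 0.21 ± 0.17 (limma adjusted p = 0.702). At each stage the genotypes differed by -0.17, -0.16 and 0.05, none of them called (limma adjusted p = 0.643, 0.638 and 0.875).

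Fyn, the Src family kinase that SAP recruits, was called in none of the 12 comparisons. Its group means were 9.58, 9.64 and 9.69 in WT and 9.69, 9.76 and 9.68 in Mst1KO. The genotype differences were 0.10 ± 0.07 at S1, where the arrays did not overlap, 0.11 ± 0.07 at S2 and -0.01 ± 0.07 at S3 (limma adjusted p = 0.659, 0.567 and 0.952). Their 95% intervals were -0.05 to 0.26, -0.04 to 0.27 and -0.17 to 0.14.

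Counted over the 7 members, the stage steps carried most of the calls. In WT 1 of 7 rose from S1 to S2 (Slamf7) and 0 fell, where 2.7% of all genes rose and 1.14% fell. The next step, S2 to S3, brought 3 up (Slamf7, Ly9, Slamf1) and 2 down (Slamf6, Sh2d1a), where 10.4% of all genes rose and 13.2% fell. Over S1 to S3 in WT 2 rose (Slamf7, Ly9) and 2 fell (Slamf6, Sh2d1a), where 15.4% and 18.4% of all genes did. In Mst1KO limma called 0 of 7 from S1 to S2, with 1 (Slamf7) at an unadjusted p under 0.05, where 6.67% of all genes were called and 19.9% had such a p. Slamf7 and Ly9 rose and Slamf6 fell in Mst1KO from S2 to S3, where 8.01% of all genes rose and 9.18% fell, and likewise from S1 to S3, where 12.3% rose and 14.4% fell. The median difference over the members for the S2 to S3 step was 0.05 in WT and -0.21 in Mst1KO, beside -0.000977 and -0.0259 over all genes.

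**Figure D3:**
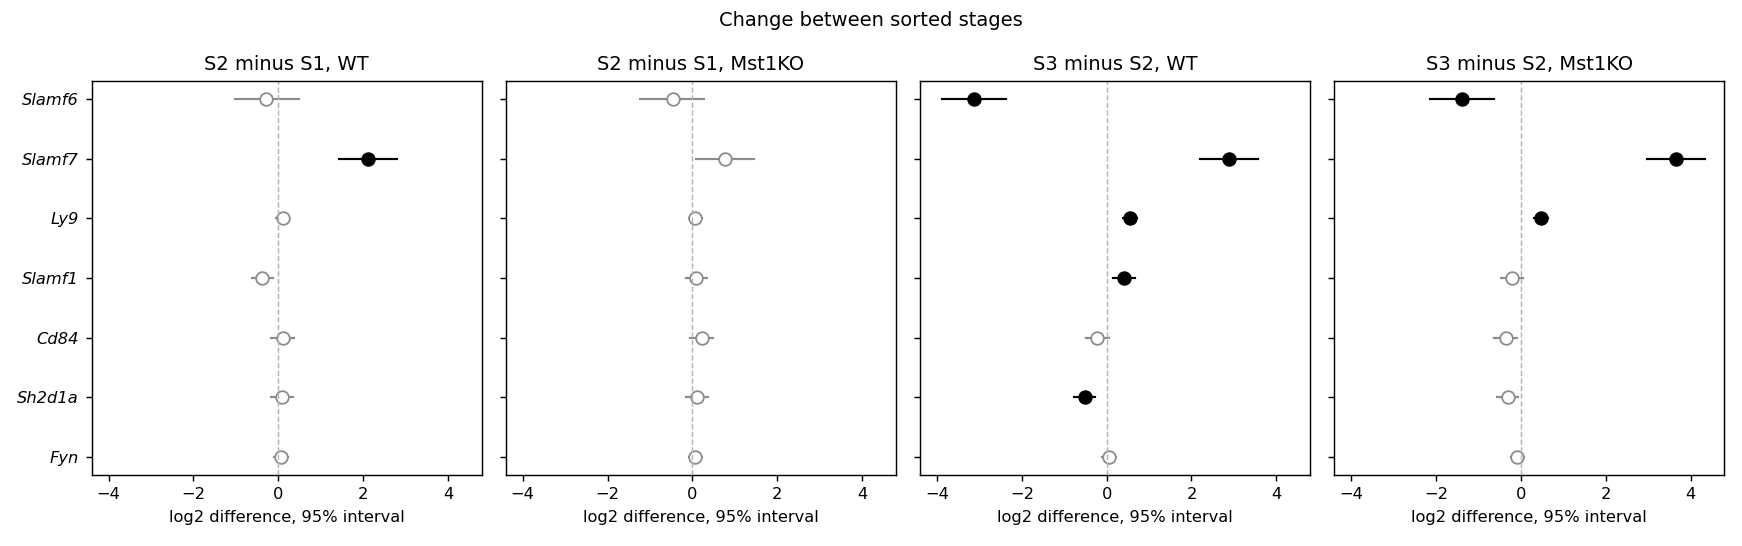
Log2 difference (horizontal axis, 95% interval) of each gene between neighbouring stages in WT and Mst1KO; filled points passed an adjusted p under 0.05. From S2 to S3, Slamf6 lies left of 0 and Slamf7 and Ly9 right of 0 in either genotype.

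Between genotypes the only member called was Slamf6, at S3. At S1 limma called 0 of 7, with 0 at an unadjusted p under 0.05, where 0.33% of all genes were called and 11.2% had such a p. At S2 it called 0 of 7, with 3 at an unadjusted p under 0.05 (Slamf7, Slamf1, Cd84), where 1.17% of all genes were called and 13.4% had such a p. At S3 it called 1 of 7, where 3.4% of all genes were called. For the average over stages it called 0 of 7, with 3 at an unadjusted p under 0.05, where 2.17% of all genes were called and 17.2% had such a p. Slamf6 was there at 0.59 ± 0.18 (limma adjusted p = 0.141; 0.38 and 0.181 without WT replicate 1), Slamf7 at -0.67 ± 0.18 (limma adjusted p = 0.115; -0.89 and 0.0253 without WT replicate 2) and Cd84 at 0.22 ± 0.07 (limma adjusted p = 0.187). Arrays of the 2 genotypes did not overlap for 2 members at S1, 2 at S2 and 3 at S3, where 18.1%, 16.8% and 23% of all genes did not overlap. The genotype difference in the change from stage to stage was called for 0 of 7 members at either step, with 2 at an unadjusted p under 0.05 at each (Slamf1 with Slamf7, then Slamf1 with Slamf6), where 0.0153% and 0.368% of all genes were called and 6.77% and 11.2% had such a p.

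**Figure D4:**
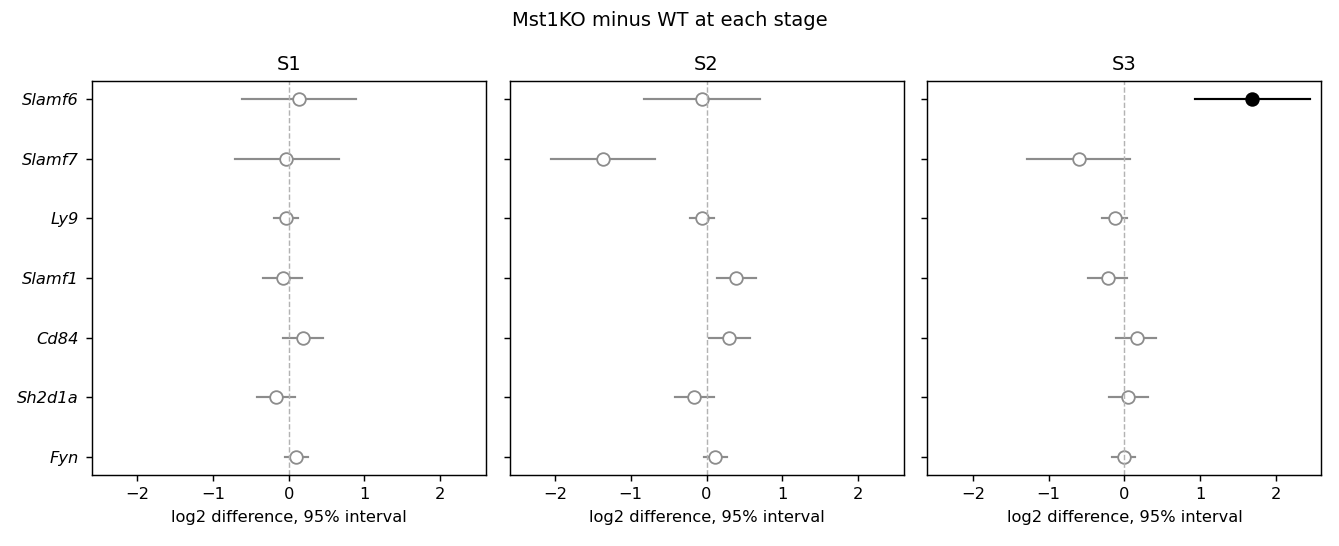
Log2 difference of Mst1KO minus WT (horizontal axis, 95% interval) for the 7 genes at S1, S2 and S3; the filled point, Slamf6 at S3, passed an adjusted p under 0.05. Slamf7 lies at -1.37 at S2 and -0.60 at S3.

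Of 3 further SLAM family receptors tested, Cd244a and Cd48 rose from S2 to S3 in either genotype. In that step 10.4% of all genes rose in WT and 8.01% in Mst1KO. Cd244a (2B4), a receptor of NK and cytotoxic T cells whose ligand is Cd48, had means of 4.48, 5.05 and 7.99 along the WT stages and 4.51, 4.67 and 6.43 along those of Mst1KO. Its S1 and S2 values lay near the array median, where differences are compressed. At S3 its WT arrays read 8.26, 7.71 and 8.02 and its Mst1KO arrays 6.38, 6.72 and 6.19, without overlap. Its S2 to S3 rise was 2.94 ± 0.25 in WT (limma adjusted p = 2.67e-07) and 1.76 ± 0.25 in Mst1KO (limma adjusted p = 9.74e-05), and at S3 it was lower in Mst1KO by -1.56 ± 0.25 (2.96-fold, limma adjusted p = 0.00194), a call kept in 6 of 6 fits without an array. The genotype difference in the S2 to S3 change was -1.18 ± 0.35 (limma adjusted p = 0.191). Cd48 rose from S2 to S3 by 0.91 ± 0.10 in WT (limma adjusted p = 6.78e-06) and 0.55 ± 0.10 in Mst1KO (limma adjusted p = 0.00135), with S3 genotype difference -0.08 ± 0.10 (limma adjusted p = 0.777). Slamf8 had group means between 5.12 and 5.73 and was called in 1 comparison, S3 against S1 in Mst1KO (0.61 ± 0.16, limma adjusted p = 0.00849), where 12.3% of all genes rose. The call was lost without replicate 1 of Mst1KO S1 (0.41, limma adjusted p = 0.0509) or replicate 3 of Mst1KO S3 (0.46, limma adjusted p = 0.0528).

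A list of 30 partner symbols of the pathway, in which Cd244 is an older name of Cd244a, had 23 genes tested, among them the 3 receptors above. In WT 5 of 23 rose and 5 fell from S2 to S3, where 10.4% of all genes rose and 13.2% fell, and in Mst1KO 6 rose and 3 fell, where 8.01% and 9.18% of all genes did. Over S1 to S3 the counts were 11 and 5 in WT (15.4% and 18.4% of all genes) and 7 and 3 in Mst1KO (12.3% and 14.4% of all genes). For the S1 to S2 step 2 rose in WT (2.7% of all genes), Egr1 (0.40) and Inpp5d (0.33), with calls lost in 4 and 5 of 6 fits without an array (0.34 to 0.45 and 0.27 to 0.38 over the 6), and limma called 0 of 23 in Mst1KO (6.67% of all genes). The median difference from S2 to S3 was 0.13 in WT and 0.10 in Mst1KO.

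Of 10 genes that act downstream of SAP and Fyn 2 rose from S2 to S3 in WT and 0 fell, where 10.4% of all genes rose and 13.2% fell. They were Malt1 (1.12 ± 0.14, limma adjusted p = 1.32e-05), the protease of the NF-kappaB complex that protein kinase C theta engages, and Ptpn6 (0.52 ± 0.08, limma adjusted p = 0.00016), the phosphatase SHP-1, which SLAM receptors can recruit in place of SAP. Both rose in Mst1KO too, with Malt1 at 1.01 ± 0.14 and Ptpn6 at 0.55 ± 0.08. The genotype comparisons called 0 of these 10 at S1, S2 and S3, where 0.33%, 1.17% and 3.4% of all genes were called. Ptprc (CD45), a phosphatase that activates Src kinases, was 1 of 3 tested genes acting on Fyn to rise, by 0.49 ± 0.08 in either genotype.

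Of 6 transcription factors of iNKT selection 5 fell from S2 to S3 in WT, where 13.2% of all genes fell: Myb (-2.74 ± 0.15), Zbtb16 (PLZF, the iNKT lineage factor, -1.32 ± 0.12), Runx1 (-0.83 ± 0.08), Egr2 (-0.62 ± 0.14) and Egr1 (-0.35; -0.24 and not called without replicate 2 of WT S3). In Mst1KO 3 fell, where 9.18% of all genes did: Myb (-0.88 ± 0.15), Zbtb16 (-0.90 ± 0.12) and Runx1 (-0.68 ± 0.08). Myb is known to be needed for Slamf1, Slamf6 and Sh2d1a expression in double positive thymocytes. At S3 its arrays read 6.17, 6.19 and 6.81 in WT and 7.67, 7.83 and 8.03 in Mst1KO, without overlap. The difference was 1.46 ± 0.15 on its brightest probe set (2.74-fold, limma adjusted p = 2.88e-05), or 0.65 with the mean of its probe sets (limma adjusted p = 0.00314). In the same comparison Slamf6 differed by 1.69, Slamf1 by -0.22 and Sh2d1a by 0.05. The part of Myb in these differences was not tested. Runx1 was higher in Mst1KO at S3 by 0.32 ± 0.08 (limma adjusted p = 0.0339), and lost its call in 4 of 6 fits without an array: without replicate 1 (0.30) or 2 (0.31) of WT S3 and without replicate 1 (0.34) or 3 (0.26) of Mst1KO S3. In all, partner calls between genotypes were 0 of 23 at S1, 0 of 23 at S2 and, at S3, 2 higher and 1 lower, where 0.33%, 1.17% and 3.4% of all genes were called. For the average over stages 1 was lower, Cd244a (-0.64 ± 0.12, limma adjusted p = 0.0431), a call that 5 of 6 fits without a replicate lost (-0.75 to -0.53 over the 6) and that the fit without WT replicate 2 kept.

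The SLAM receptor genes lie close together. Among entries listed as protein-coding in RefSeq's GRCm38.p6 table the order on chromosome 1 is Cd244a, Ly9, Slamf7, Cd48, Slamf1, Cd84 and Slamf6, with Tma7-ps between Cd48 and Slamf1. Sh2d1a is on chromosome X and Fyn on chromosome 10. Between S2 and S3 in WT 5 of these 7 receptor genes rose, where 10.4% of all genes rose and 13.2% fell, Slamf6 fell, and Cd84 was at -0.22 ± 0.13 (limma adjusted p = 0.244). In Mst1KO 4 rose and Slamf6 fell, where 8.01% and 9.18% of all genes did. At S3 the 2 outermost genes of the cluster were the 2 called between genotypes, Cd244a lower and Slamf6 higher in Mst1KO. At that stage 3.4% of all genes were called, and the Slamf6 call was lost in 2 of 6 fits without an array. Position in the cluster was not tested.

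Of the 20 protein-coding genes flanking the cluster, 10 on each side, 12 were tested. Between genotypes 0 of 12 were called at S1, S2 or S3, where 0.33%, 1.17% and 3.4% of all genes were called. Arrays of the 2 genotypes did not overlap for 2, 0 and 4 of them, where 18.1%, 16.8% and 23% of all genes did not. The S2 to S3 step in WT brought 3 up (10.4% of all genes), Pea15a, a regulator of ERK and apoptosis (1.30 ± 0.12), Alyref2 (0.44 ± 0.14) and Arhgap30 (0.33 ± 0.10), and in Mst1KO 1 rose (8.01% of all genes), Pea15a (1.15 ± 0.12).

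**Figure D5:**
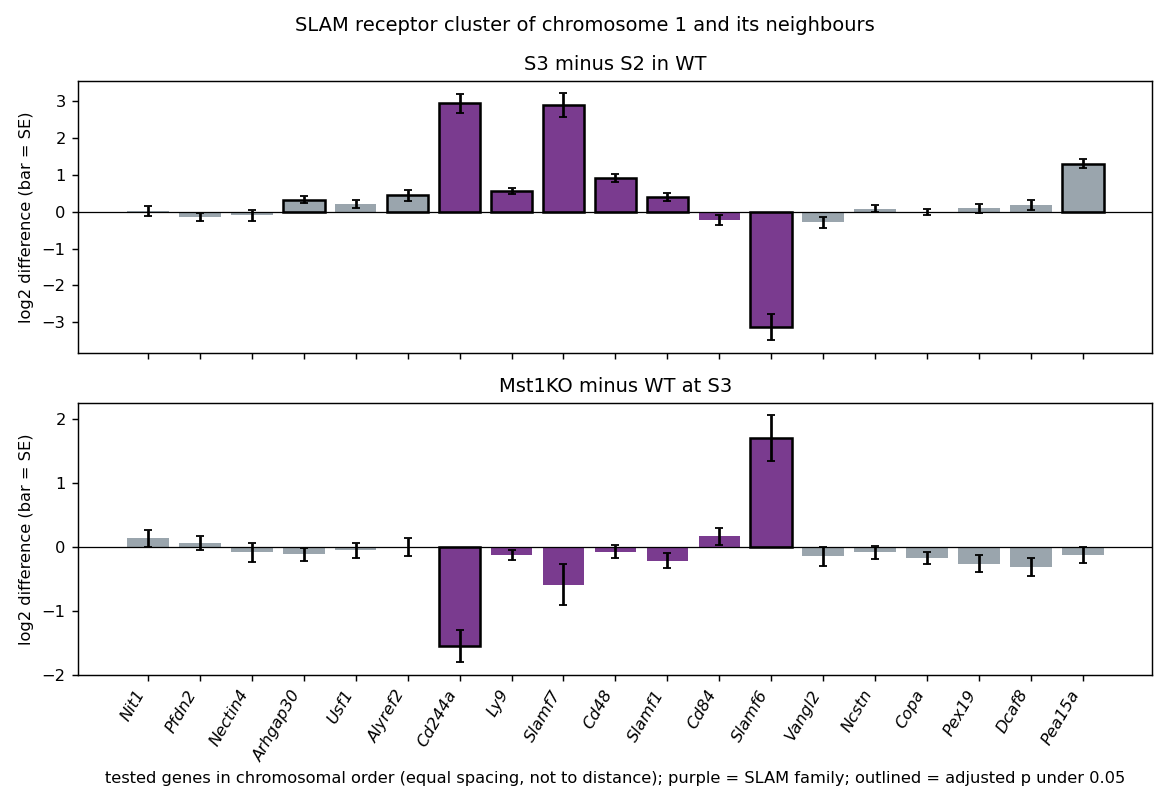
Log2 difference (vertical axis, bar = SE) of the tested genes in and around the SLAM cluster in chromosomal order (horizontal axis, equal spacing), for S3 minus S2 in WT (top) and Mst1KO minus WT at S3 (bottom). Outlined bars passed an adjusted p under 0.05; in the top panel Cd244a and Slamf7 are near 2.9 and Slamf6 at -3.13.

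The genes closest to Slamf6 and Slamf7 in pattern were sought among all genes tested, by the root mean square difference over the 18 arrays after each gene was centred on its own mean. For Slamf6 these were Kif23 (0.33), a kinesin of cell division, Pdlim1 (0.33), an actin-linked adaptor, and 1500009L16Rik (0.35). At S3 Pdlim1 was higher in Mst1KO by 1.64 ± 0.12 (limma adjusted p = 4.77e-07) and 1500009L16Rik by 1.03 ± 0.20 (limma adjusted p = 0.00712), while Kif23 was at 0.76 ± 0.26 (limma adjusted p = 0.146). For Slamf7 they were Il12rb2 (0.37), a chain of the IL-12 receptor, Fasl (0.44), the death ligand, and Nkg7 (0.50), a granule protein of cytotoxic cells. At S2 Il12rb2 was lower in Mst1KO by -1.97 ± 0.33 (limma adjusted p = 0.00808), Fasl was at -0.58 ± 0.32 (limma adjusted p = 0.47) and Nkg7 at -0.59 ± 0.23 (limma adjusted p = 0.261). Likeness was measured over both genotypes and all stages, so these values describe the same arrays and are not independent of it. The group means of the other 5 members spanned less than 1 on the log2 scale, and no such genes were sought for them.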

How the data were processed

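Each deposited value is the log2 expression of a probe set on an Affymetrix MoGene-2_0 array. The submitters' processing notes name RMA and Affymetrix Expression Console 1.1; with RMA the authors bring arrays to 1 distribution, so levels were already normalized between arrays. The genome build behind the probe sets was not given in the sources used here, and gene symbols came from GEO's platform annotation, which can be old. Among 41345 probe sets, 16010 had no gene symbol, 1814 had more than 1 and 23521 exactly 1, and 13702 of the last exceeded their array's median on at least 3 of 18 arrays; the brightest per gene gave 13034 genes. limma 3.58.1 (R 4.3.3) fitted a mean for each of 6 groups, after the script was tested on simulated data. For the average over stages, the 3 values of a genotype and replicate number were averaged first. Summed marker levels are log2 of the sum of linear values.

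The members and lists were chosen with earlier results of these data known. Named genes were the members, Stk4, any partner or cluster gene with all counts given, and the 3 genes closest in pattern to each member whose group means spanned at least 1. The separate Slamf6 probe sets were added after seeing the data. Alternatives were other filters (none, 75th percentile), scalings (quantile again, median centring), variance models (trend with robust fit, array weights), averaged probe sets, fits limited to the groups compared, a replicate block, and leaving out each array. Figures used matplotlib 3.10.9.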

Additional observations from a re-analysis of the deposited data

Results flagged for a closer look

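The S2 to S3 change of Myb, a transcription factor of the partner list, differed between genotypes by a test of the difference itself: 1.87 ± 0.22 (limma adjusted p = 0.000821), with WT at -2.74 ± 0.15 and Mst1KO at -0.88 ± 0.15. It was called in 12 of 12 fits without an array (1.755 to 2.076), all on the brightest Myb probe set. With the mean of the Myb probe sets it was 0.92 (limma adjusted p = 0.0133), so its size depended on the probe set. Of the 7 members, 0 showed such a called difference, where 0.368% of all genes did.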

How the results depend on the processing

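Of 84 member tests (7 genes, 12 comparisons) 17 were called. The larger moves in the count of called members were as follows. In Mst1KO against WT at S2 it was 1 (Slamf7) and not 0 with a 75th percentile filter, with quantile normalization repeated and with a replicate block. Over all genes these fits called 207 (of 7500 tested), 166 and 177, and the main fit 152 (of 13034). In the average over stages the count of called members was 2 (Slamf6, Slamf7) and not 0 with a replicate block, where 199 and not 283 of all genes were called. For S1 to S2 in WT it was 2 and not 1 with a replicate block, which added Slamf1, while calls over all genes went from 501 to 526. For S2 to S3 it was 3 and not 5 in WT with only the groups compared, and 5 and not 3 in Mst1KO with quantile normalization repeated, which added Cd84 and Sh2d1a. Over all genes these calls went from 3073 to 2037 and from 2240 to 2443. Smaller moves are left out of this list. Cd84 was also called for S2 to S3 in Mst1KO under other settings, which added it to that count. The replicate block changed no other member call, and equal numbers share no stated mouse. The correlation of their deviations was -0.053 to 0.206 (median 0.062) between stages of 1 genotype and -0.051 to 0.083 (median 0.035) between genotypes. Pairs with different numbers gave -0.177 to 0.065 (median -0.022) and -0.084 to 0.108 (median -0.014). Equal numbers thus had the higher medians, and whether they share a mouse was not tested. Without each array in turn the count ranged from 0 to 1 at S2, at S3, in the average over stages and in either test of a genotype difference in a stage change, and from 2 to 4 for S2 to S3 in Mst1KO. With 3 arrays a group, small differences were measured imprecisely.

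The sign turned under some setting in 15 of the 84 values, none of them called. Median centring gave 0.01045 for Slamf7 at S1, 0.009473 for Ly9 at S1, 0.008137 for Fyn at S3, and -0.009423 (Sh2d1a) and -0.01728 (Fyn) for the genotype difference in the S1 to S2 change. Without each array in turn that last difference ranged from -0.08492 to 0.01117 for Ly9, -0.009703 to 0.276 for Cd84, -0.06308 to 0.07777 for Sh2d1a and -0.04138 to 0.04013 for Fyn. The genotype difference at S1 ranged from -0.1898 to 0.02184 for Slamf1, -0.153 to 0.07861 for Slamf7 and -0.06242 to 0.02768 for Ly9, that at S2 from -0.1337 to 0.02907 for Slamf6, that at S3 from -0.08339 to 0.1351 for Sh2d1a, and the average from -0.05644 to 0.1024 for Slamf1. In WT, S2 against S1 ranged from -0.06063 to 0.2251 for Cd84, and S3 against S1 from -0.08529 to 0.1264 for Slamf1 and -0.28 to 0.005757 for Cd84. In Mst1KO, S3 against S1 ranged from -0.03128 to 0.006697 for Fyn.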
